A study of Mus musculus with 28 samples.

Results

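The liver of untreated Aag null mice was set against the liver of untreated wild-type (WT) mice. Aag, whose gene is Mpg, is the alkyladenine DNA glycosylase, the enzyme that removes alkylated purines from DNA at the start of base excision repair. The arrays were chosen by their titles alone: 4 arrays of untreated Aag null liver and 3 arrays of untreated WT liver, 7 of the 28 arrays of the study. The other 21 arrays hold liver of the same genotypes taken 6, 12, 24 or 48 h after MMS (methyl methanesulfonate), which methylates DNA bases, 12 from Aag null and 9 from WT mice. They serve here to estimate the spread between replicates and to show where a level stood after MMS. The 7 untreated arrays carried no treatment, so that the null allele is the only labelled difference between the groups. The sources used here do not give the strain, sex, age, hour of death, feeding or construction of the null allele. Nothing states that each array holds a separate mouse, so the p-values measure the spread between these arrays, part of which may be technical.

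The liver sets much of its gene expression by the hour of the day and by feeding. The clock is a loop in which the activators Clock and Bmal1 (Arntl) drive the Per and Cry repressors and the nuclear receptors Nr1d1 and Nr1d2 (REV-ERBalpha and REV-ERBbeta). The receptors in turn repress genes through an element called RORE, and the output factors Dbp and Tef act through D-boxes. In fasting, the nuclear receptor PPARalpha turns on the genes that carry fatty acids into mitochondria and oxidize them, while glucose output depends on G6pc, the catalytic subunit of glucose-6-phosphatase.

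Each array reported 12488 probe sets as log2 values of biotin-labelled total liver RNA, between 0.689 and 13.2. Levels below are log2 values after quantile normalization, and a difference is Aag null minus WT on the log2 scale, so that 1 unit is a doubling. One property of the arrays divides the Aag group. The 9 hybridization control probe sets, which read bacterial and phage transcripts spiked into every sample, averaged 8.17 and 8.09 in Aag replicates 1 and 2 and 10.2 and 10.6 in Aag replicates 3 and 4, against 11.5, 11.6 and 10.9 in the 3 WT arrays. Replicates 3 and 4 thus lay much nearer to WT, though both were below all 3 WT arrays. All 21 arrays taken after MMS read between 6.42 and 9.22, with replicates 1 and 2 and apart from the other 5 untreated arrays. The Gapdh 3′ probe set minus its 5′ probe set, a measure of how far labelled RNA reached the 5′ end, was −0.19 and 0.02 in Aag replicates 1 and 2 and 0.64 and 0.67 in replicates 3 and 4, against 0.92, 0.79 and 0.63 in WT. The 18S ribosomal RNA probe set read 5.07, 4.90, 5.72 and 6.15 in the Aag arrays, against 6.75, 8.42 and 5.82 in WT. Aag replicates 1 and 2 correlated with each other at 0.981 over the 5487 genes tested, replicates 3 and 4 at 0.981, and arrays of the 2 pairs at 0.933 to 0.954, against 0.950 to 0.962 among the WT arrays.

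**Figure D1:**
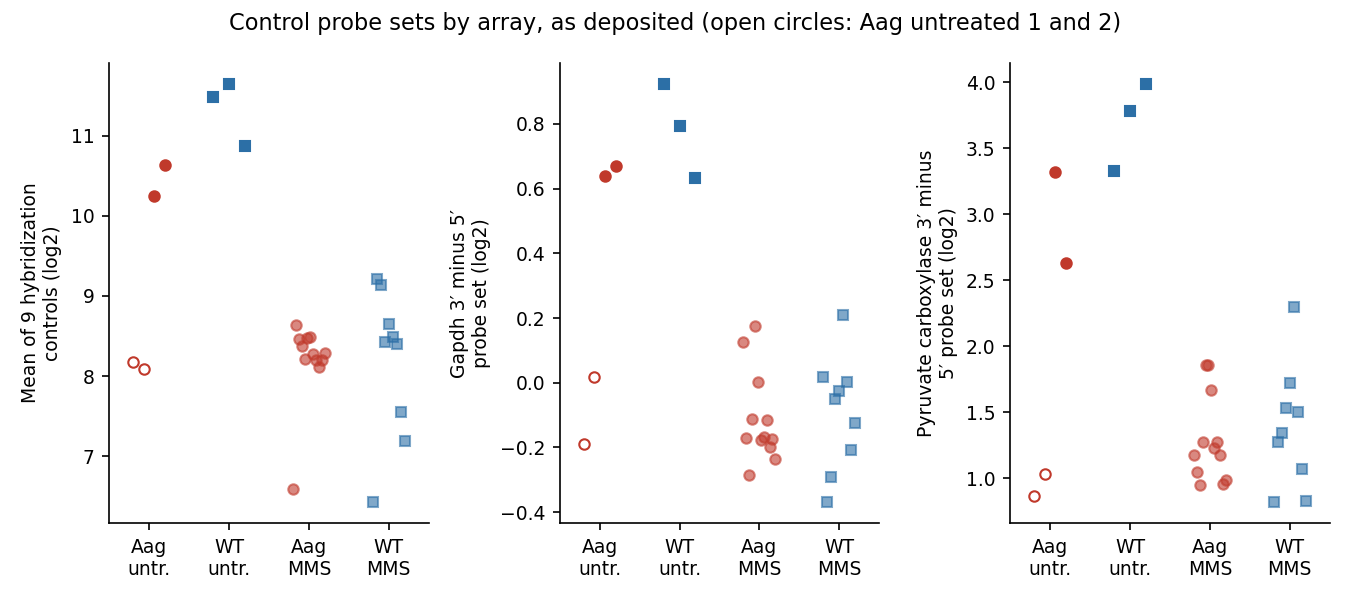
Control probe sets in each array on the deposited log2 scale: the mean of the 9 hybridization controls, and the 3′ minus 5′ difference of the Gapdh and pyruvate carboxylase controls. Each point is 1 array. Aag untreated replicates 1 and 2 (open circles) sit with the arrays taken after MMS, and replicates 3 and 4 sit next to the WT untreated arrays, whose hybridization controls span 10.9 to 11.6.

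The comparison of untreated liver was therefore made both ways, with all 4 Aag arrays and with replicates 3 and 4 only. Aag replicate 3 also differed from the others in genes that mark the sex of a mouse liver. Cyp2b9, a female-typical P450, read 3.13, 3.00, 7.73 and 4.21 in the Aag arrays, against 3.04, 2.49 and 3.60 in WT. Hsd3b5, a male-typical steroid enzyme, read 8.18, 8.30, 5.27 and 7.85 in Aag, against 8.23, 8.41 and 7.69 in WT. The Y-linked Eif2s3y read 4.05, 3.89, 2.58 and 4.05 in Aag, against 3.71, 4.01 and 3.51 in WT. Replicate 3 is thus the only untreated array with a female-typical pattern. The fit with replicates 3 and 4 was also run with that pattern as a term, and its value is given below where it ends a call. That term also marked Aag replicates 1 and 2 taken 24 h after MMS, so it rests partly on treated liver.

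The targeted gene was dim. Mpg, read by 1 probe set, stood at 2.40, 2.33, 2.35 and 2.30 in the Aag arrays, against 2.82, 2.54 and 2.83 in WT. The groups did not overlap, yet the gene lay below the brightness filter and entered no main test. Among the 5487 genes tested, the untreated groups did not overlap in 691, so this alone is common. Without that filter its difference was −0.38 ± 0.11 (standard error, adjusted p = 0.0314 with all 4 Aag arrays, adjusted p = 0.0922 with replicates 3 and 4). The sources used here do not say whether its probes fall inside the deletion, so this is a check of the labels only if they do.

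With all 4 Aag arrays, 247 of 5487 genes (4.50%) passed an adjusted p of 0.05 in limma, 110 higher (2.00%) and 137 lower (2.50%) in Aag null liver. With Aag replicates 3 and 4 only, 159 genes (2.90%) passed, 83 higher (1.51%) and 76 lower (1.39%). The comparisons share the WT arrays and replicates 3 and 4. Called in both with the same sign were 87 genes (1.59% of those tested), 36 higher (0.656%) and 51 lower (0.929%), which is 35.2% of the first set and 54.7% of the second. The lower genes include some that passed the brightness filter only through the untreated WT arrays, where they were high. Among them are Elovl3, Keap1, Ccng2, Hipk1 and Itga5, which read at most 3.54, 3.67, 3.99, 3.99 and 3.87 on the other arrays. The 87 include clock genes (Nr1d2, Tef, Cry1), fatty acid oxidation genes (Cpt1a, Hadhb, Slc25a20), G6pc, and 3 tubulins (Tubb2a, Tubb3, Tubb6). When the female-typical pattern was a term in the fit with replicates 3 and 4, 41 of the 87 were still called. At an unadjusted p under 0.05 there were 1078 genes (19.6%) with all 4 arrays and 1011 (18.4%) with replicates 3 and 4. With replicate 4 as the only Aag array 17 of the 87 were called, with replicate 3 as the only one 19, and 10 with either. Fits that estimate the spread from the untreated groups alone called 2 genes with all 4 Aag arrays and 28 with replicates 3 and 4, and 10 of the 87 were among the 28.

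The 2 pairs of Aag arrays also differed from each other. Replicates 3 and 4 against replicates 1 and 2, a contrast added after the data were seen, gave 410 called genes (7.47%), 208 higher and 202 lower, in a fit where each pair had its own mean. Against WT, replicates 1 and 2 alone gave 538 and replicates 3 and 4 alone 159. Of the 87 genes called in both genotype comparisons, 6 were among these: Tubb2a, Elovl3, Ethe1, Chka, Upp2 and Erdr1. Among the 159 genes called with replicates 3 and 4, 53 were, and among the 247 called with all 4 arrays, 24. These sets were chosen on Aag arrays that the pair contrast also uses, so nothing is read from the overlaps.

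In the circadian clock, Nr1d2 and Tef were higher and Cry1 lower in Aag null liver by either set of arrays. Of 28 genes listed, 21 were on the array and 14 were bright enough to test. With all 4 Aag arrays 3 rose (Nr1d1, Nr1d2, Tef) and 1 fell (Cry1), beside 2.00% and 2.50% of all genes. With replicates 3 and 4, 4 rose (Nr1d2, Dbp, Tef, Usp2) and 2 fell (Cry1, Cry2), beside 1.51% and 1.39%. The median difference of the 14 was 0.24 with all 4 arrays and 0.42 with replicates 3 and 4, beside 0.02 and −0.02 over all genes tested. The promoters of the 3 genes that held in both are shown first, from 250 bases before to 50 after the annotated start, with motifs of the clock in capitals. They are RefSeq sequences of build GRCm38.p6, printed in the direction of transcription. Motifs were searched on both strands: the E-box CACGTG (7.15% of all 32851 promoters in the table hold it), the D-box TTATGTAA or TTACGTAA (1.06%) and the RORE half-site AGGTCA (16.3%).
Nr1d2, chr14:18239057-18239356, minus strand: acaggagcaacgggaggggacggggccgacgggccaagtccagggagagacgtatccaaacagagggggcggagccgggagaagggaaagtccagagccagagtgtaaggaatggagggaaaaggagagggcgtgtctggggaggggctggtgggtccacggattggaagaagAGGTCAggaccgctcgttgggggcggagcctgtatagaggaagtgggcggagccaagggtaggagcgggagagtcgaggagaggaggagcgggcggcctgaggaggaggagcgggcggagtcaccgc
Tef, chr15:81802423-81802722, plus strand, the first of 2 annotated starts: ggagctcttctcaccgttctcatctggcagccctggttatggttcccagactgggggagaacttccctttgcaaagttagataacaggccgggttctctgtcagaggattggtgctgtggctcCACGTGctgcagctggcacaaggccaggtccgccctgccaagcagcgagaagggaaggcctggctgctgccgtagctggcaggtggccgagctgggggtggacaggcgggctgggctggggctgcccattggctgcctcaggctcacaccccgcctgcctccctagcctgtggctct
Cry1, chr10:85185005-85185304, minus strand: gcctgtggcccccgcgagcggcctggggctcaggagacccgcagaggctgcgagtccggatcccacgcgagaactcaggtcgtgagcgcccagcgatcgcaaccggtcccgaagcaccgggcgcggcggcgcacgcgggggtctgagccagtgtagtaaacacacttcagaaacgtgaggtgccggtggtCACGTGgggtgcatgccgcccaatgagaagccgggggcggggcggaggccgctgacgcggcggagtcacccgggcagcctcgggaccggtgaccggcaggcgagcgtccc
The Nr1d2 window holds a RORE half-site beginning 77 bases before the start, the Tef window an E-box at 127 bases and the Cry1 window an E-box at 60 bases. The windows of the other called clock genes, Nr1d1, Dbp, Usp2 and Cry2, were searched as well and held none of these motifs. A match of letters is a description and not evidence of binding.

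Nr1d2, a transcriptional repressor, read 4.29, 4.12, 4.58 and 4.68 in the Aag arrays, against 3.01, 2.92 and 2.70 in WT. The difference was 1.54 ± 0.33 with all 4 arrays, a 2.90-fold higher level (adjusted p = 0.0101), and 1.75 ± 0.40 with replicates 3 and 4 (adjusted p = 0.0232). Its groups were far apart and no Aag array approached a WT one. Its partner Nr1d1 read 5.61, 5.96, 5.19 and 5.63 in Aag, against 4.68, 4.68 and 4.55 in WT. The groups did not overlap, as held for 691 of the 5487 genes tested. The difference was 0.96 ± 0.19 with all 4 arrays (adjusted p = 0.00605), and with replicates 3 and 4 it was 0.77 ± 0.22 and missed the threshold (adjusted p = 0.0605). Tef, an activator that binds D-boxes, read 7.82, 7.42, 8.12 and 8.11 in Aag, against 6.79, 7.17 and 7.22 in WT, and rose by 0.81 ± 0.18 (adjusted p = 0.0155) or 1.05 ± 0.20 (adjusted p = 0.00558). Cry1, a repressor of Clock and Bmal1, read 4.48, 4.45, 4.76 and 4.81 in Aag, against 5.46, 5.34 and 6.16 in WT. It fell by 1.03 ± 0.17 (adjusted p = 0.00256) with all 4 arrays and by 0.87 ± 0.20 (adjusted p = 0.0231) with replicates 3 and 4, and all 3 of its probe sets gave the same sign. Left with only Aag replicate 3 or 4, adjusted p was 0.144 and 0.140 for Nr1d2, 0.0638 and 0.0726 for Tef and 0.115 and 0.171 for Cry1, with differences close to those given. With the female-typical pattern as a term of that fit, adjusted p was 0.0599 for Nr1d2, 0.0276 for Tef and 0.0574 for Cry1. Without WT replicate 1, Tef was 0.67 with all 4 Aag arrays (adjusted p = 0.0764).

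Dbp, a D-box activator whose level swings widely over the day in mouse liver, separated the 2 pairs of Aag arrays and not the genotypes. It read 3.88 and 3.62 in Aag replicates 1 and 2, 6.30 and 6.79 in replicates 3 and 4, and 4.02, 3.79 and 3.69 in WT. Replicates 3 and 4 stood 2.71 ± 0.22 above WT, 6.52-fold (adjusted p = 2.95e-07), and 2.79 above replicates 1 and 2 (adjusted p = 3.37e-07), while the difference over all 4 arrays was 1.31 ± 0.48 (adjusted p = 0.122). Usp2, a clock-controlled deubiquitinase, read 5.02, 5.17, 6.25 and 6.41 in Aag, against 4.91, 5.88 and 5.63 in WT, and passed only with replicates 3 and 4 (0.86 ± 0.22, adjusted p = 0.0398). Cry2 read 4.83, 4.64, 4.33 and 4.42 in Aag, against 4.79, 4.94 and 4.90 in WT, and also passed only with replicates 3 and 4 (−0.50 ± 0.11, adjusted p = 0.0228). The call of Usp2 was lost without WT replicate 1 (adjusted p = 0.106), Aag replicate 3 (adjusted p = 0.160) or Aag replicate 4 (adjusted p = 0.246). That of Cry2 was lost without either Aag array (adjusted p = 0.187 and 0.0989) and with the female-typical term (adjusted p = 0.0662). For Usp2 and Cry2 the pairs of Aag arrays differed by 1.23 (adjusted p = 0.00334) and −0.36 (adjusted p = 0.0803). Per1, a repressor, did not pass (0.17 ± 0.12, adjusted p = 0.454). Arntl, Clock and Per2 were too dim to test. Arntl read 3.11, 2.97, 2.39 and 2.47 in Aag, against 3.73, 2.80 and 3.83 in WT, with overlapping groups.

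**Figure D2:**
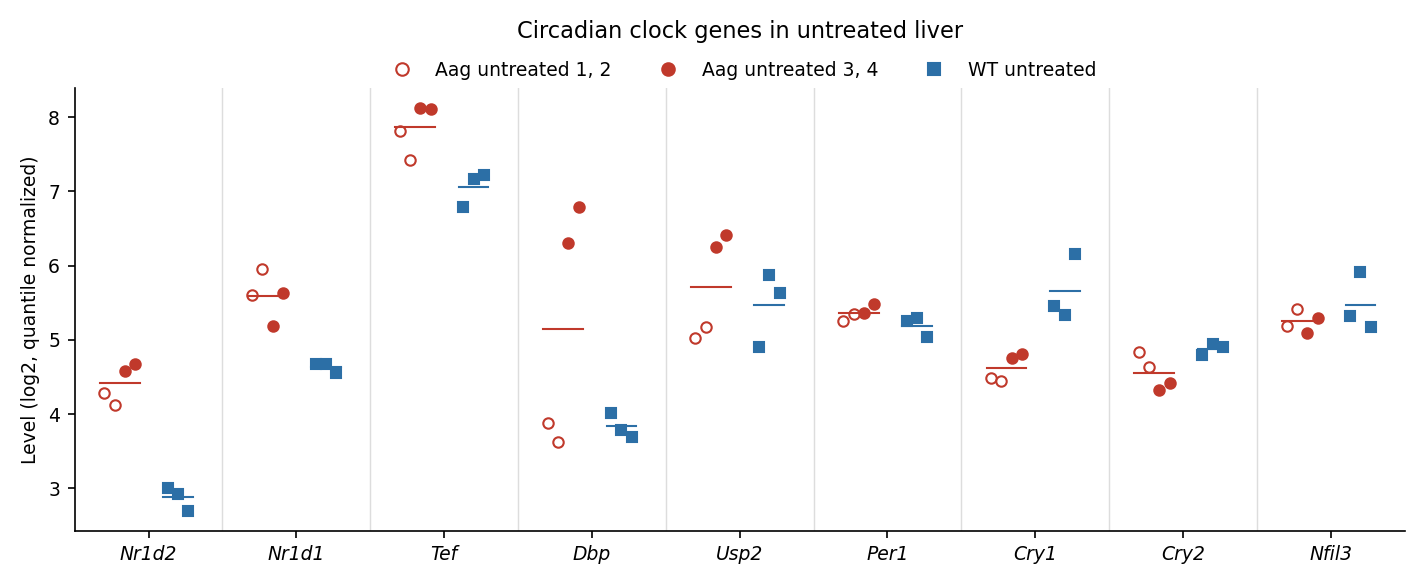
Normalized log2 level of 9 clock genes in each untreated array, with the group mean as a line. Nr1d2, Nr1d1 and Tef lie higher and Cry1 lower in all 4 Aag arrays, whereas Dbp is high only in Aag replicates 3 and 4 (6.30 and 6.79).

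Genes that bring fatty acids into mitochondria and oxidize them were higher in Aag null liver, few of them by all 4 arrays and more by replicates 3 and 4. Of 42 listed PPARalpha targets and oxidation genes, 30 were on the array and 28 tested. With all 4 arrays 3 rose, beside 2.00% of all genes, and none fell in limma. At an unadjusted p under 0.05 there were 9 higher and 1 lower, beside 19.6% of all genes in either direction. With replicates 3 and 4, 9 rose, beside 1.51% of all genes, and none fell, and at an unadjusted p under 0.05 there were 17 higher and 1 lower, beside 18.4%. The median difference was 0.28 and 0.61, beside 0.02 and −0.02 over all genes.

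Cpt1a, the carnitine palmitoyltransferase that gates the entry of long-chain fatty acids into mitochondria, read 8.07, 8.0, 8.50 and 8.77 in Aag, against 7.08, 6.94 and 7.60 in WT. All Aag arrays were above all WT arrays, by 1.12 ± 0.20 with all 4 (2.18-fold, adjusted p = 0.00378) and 1.43 ± 0.22 with replicates 3 and 4 (2.69-fold, adjusted p = 0.00104). It was called whichever untreated array was left out (largest adjusted p = 0.0366). Slc25a20, the carrier that moves acylcarnitines across the inner membrane, read 6.73, 6.57, 7.10 and 6.85 in Aag, against 6.31, 6.22 and 6.41 in WT. Its difference was 0.50 ± 0.14 (adjusted p = 0.0397) and 0.66 ± 0.16 (adjusted p = 0.0267), and its call was lost on leaving out any of 5 of the 7 arrays in the first fit (adjusted p up to 0.127) and any of 3 of 5 in the second (up to 0.279). Hadhb, a subunit of the trifunctional protein of beta-oxidation, read 8.09, 7.94, 8.12 and 8.23 in Aag, against 7.49, 7.21 and 7.62 in WT, a difference of 0.66 ± 0.13 (adjusted p = 0.00545) and 0.74 ± 0.15 (adjusted p = 0.0110). With replicate 3 or replicate 4 as the only Aag array, Hadhb missed the threshold (adjusted p = 0.115 and 0.0726). With the female-typical pattern as a term, Cpt1a and Hadhb were called (adjusted p = 0.00145 and 0.0200) and Slc25a20 was not (adjusted p = 0.0662).
The Cpt1a promoter, shown because the gene held in every fit with an array left out, carries a RORE half-site 94 bases before its start (capitals, RefSeq, GRCm38.p6, chr19:3323051-3323350, plus strand).
Cpt1a: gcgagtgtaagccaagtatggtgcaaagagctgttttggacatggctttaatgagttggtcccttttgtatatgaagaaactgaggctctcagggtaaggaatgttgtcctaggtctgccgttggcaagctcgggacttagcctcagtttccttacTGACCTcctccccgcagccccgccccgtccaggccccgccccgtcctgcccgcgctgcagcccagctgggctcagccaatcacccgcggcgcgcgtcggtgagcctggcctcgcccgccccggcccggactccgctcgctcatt

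The other 6 members that passed with replicates 3 and 4 were high in that pair and not in replicates 1 and 2. They lie outside the rule for named genes and were chosen after their values were seen, as were Igfbp1, Pck1, Slc37a4, Ppara, Acadm and Cyp7a1. Vnn1, a pantetheinase and PPARalpha target, read 3.89 and 3.74 in replicates 1 and 2, 6.65 and 5.98 in replicates 3 and 4, and 3.51, 4.34 and 3.78 in WT (2.44 ± 0.34 for replicates 3 and 4 against WT, adjusted p = 0.000393). Cyp4a14, a fatty acid omega-hydroxylase, read 3.83, 3.45, 7.94 and 7.03 in Aag, against 3.94, 4.81 and 5.79 in WT. Its WT arrays were themselves spread widely, and its call with replicates 3 and 4 (2.64 ± 0.70, adjusted p = 0.0436) was lost with either Aag array left out (adjusted p up to 0.329) and with the female-typical term (adjusted p = 0.142). Eci2, an enoyl-CoA isomerase, read 6.41, 6.58, 7.92 and 7.89 in Aag, against 6.33, 5.94 and 6.64 in WT (1.60 ± 0.25 for replicates 3 and 4, adjusted p = 0.00104). For replicates 3 and 4 against WT, the isomerase Eci1 differed by 0.68 (adjusted p = 0.0109), the thioesterase Acot1 by 1.11 (adjusted p = 0.0135) and the omega-hydroxylase Cyp4a10 by 1.76 (adjusted p = 0.0493). With the female-typical term Cyp4a10 was not called (adjusted p = 0.159), and with 1 array left out at a time adjusted p reached 0.0997 for Eci1, 0.136 for Acot1 and 0.419 for Cyp4a10. Between the pairs of Aag arrays, 13 of the 28 members were higher in replicates 3 and 4 and none lower, beside 3.79% and 3.68% of all genes. The largest of these was Cyp4a14 at 3.85 (adjusted p = 0.00344). Ppara, the receptor itself, was at 0.00 ± 0.16 with all 4 arrays (adjusted p = 1.0). Acadm, a medium-chain dehydrogenase, missed the threshold (0.61 ± 0.21, adjusted p = 0.0932). Its groups did not overlap, as held for 691 of the 5487 genes tested.

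**Figure D3:**
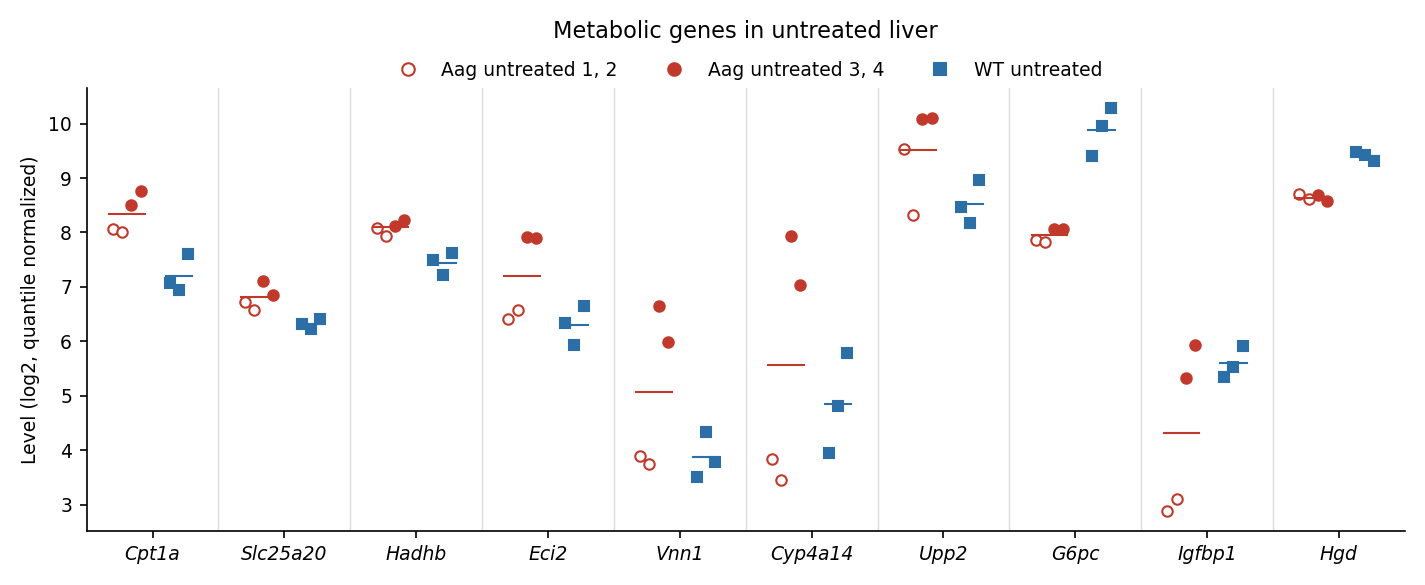
Normalized log2 level of 10 metabolic genes in each untreated array, with the group mean as a line. Cpt1a, Slc25a20 and Hadhb lie higher, and G6pc and Hgd lower, in all 4 Aag arrays. Eci2, Vnn1 and Cyp4a14 are high, and Igfbp1 is at the WT level, only in Aag replicates 3 and 4.

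G6pc, the last enzyme of glucose output, had the largest fall of all genes called with all 4 arrays whose groups did not overlap. It read 7.87, 7.82, 8.06 and 8.07 in Aag, against 9.40, 9.95 and 10.3 in WT. The 4 Aag arrays lay close together and far below WT, and the difference was −1.92 ± 0.36, 3.79-fold lower (adjusted p = 0.00378), or −1.81 ± 0.45 with replicates 3 and 4 (adjusted p = 0.0331). The second call held on leaving out only WT replicate 1 (adjusted p = 0.0283) and was otherwise lost, with adjusted p up to 0.187 and differences between −1.61 and −1.82 in the fits that lost it. With the female-typical pattern as a term, G6pc was at −1.76 (adjusted p = 0.0868). The G6pc promoter is the one shown here that holds a D-box, 162 bases before the start, and it also holds a RORE half-site at 54 bases (capitals, RefSeq, GRCm38.p6, chr11:101367466-101367765, plus strand).
G6pc: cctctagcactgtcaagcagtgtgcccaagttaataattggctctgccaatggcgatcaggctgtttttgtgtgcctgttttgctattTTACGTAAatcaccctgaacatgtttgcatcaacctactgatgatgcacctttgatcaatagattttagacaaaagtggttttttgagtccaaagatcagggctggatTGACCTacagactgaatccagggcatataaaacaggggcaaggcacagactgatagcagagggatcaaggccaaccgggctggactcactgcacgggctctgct
Of the 16 genes of glucose output, glycolysis and fasting that were tested, G6pc alone was called, in both fits. Over all genes 2.50% were called lower with all 4 arrays and 1.39% with replicates 3 and 4. At an unadjusted p under 0.05, 5 of the 16 passed with all 4 arrays and 4 with replicates 3 and 4, beside 19.6% and 18.4%. Pck1, which commits oxaloacetate to glucose, read 7.75, 7.27, 8.20 and 7.97 in Aag, against 7.24, 7.41 and 7.77 in WT (0.32 ± 0.22, adjusted p = 0.460). Slc37a4, the glucose-6-phosphate transporter that works beside G6pc, was at 0.21 ± 0.17 (adjusted p = 0.537). Igfbp1, an insulin-repressed secreted protein, read 2.89 and 3.10 in Aag replicates 1 and 2, 5.33 and 5.93 in replicates 3 and 4, and 5.35, 5.53 and 5.92 in WT. Replicates 3 and 4 exceeded 1 and 2 by 2.64 (adjusted p = 0.0317) and differed from WT by 0.03 ± 0.69 (adjusted p = 0.984). Between the pairs of Aag arrays, Cebpb, Igfbp1, Pcx and Slc37a4 were called higher in replicates 3 and 4. These were 4 of the 16, with none called lower, beside 3.79% and 3.68% of all genes. The Slc37a4 difference above thus averages unlike pairs.

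Other metabolic lists gave few calls. Upp2, a uridine phosphorylase, read 9.53, 8.32, 10.1 and 10.1 in Aag, against 8.46, 8.17 and 8.96 in WT. The groups overlapped through replicate 2, and its difference was 0.98 ± 0.28 (adjusted p = 0.048) with all 4 arrays and 1.56 ± 0.20 (adjusted p = 0.000168) with replicates 3 and 4. The first call was lost without any 1 of 5 arrays, WT replicates 1 and 2 and Aag replicates 1, 3 and 4 (adjusted p up to 0.186). Hgd, the homogentisate dioxygenase of tyrosine breakdown, read 8.70, 8.61, 8.68 and 8.57 in Aag, against 9.48, 9.43 and 9.31 in WT, a fall of 0.77 ± 0.14 (adjusted p = 0.00373) and 0.78 ± 0.17 (adjusted p = 0.0141). Without Aag replicate 3 or 4 the second call was lost (adjusted p = 0.0905 and 0.131). Hgd was the only one of 28 tested genes of the urea cycle and amino acid breakdown that passed either test. Over all genes 4.50% passed with all 4 arrays and 2.90% with replicates 3 and 4. At an unadjusted p under 0.05, 7 and 2 of the 28 passed, beside 19.6% and 18.4%. Elovl3, a fatty acid elongase and male-typical liver gene, read 3.50, 3.54, 2.37 and 2.65 in Aag, against 4.35, 4.50 and 3.28 in WT, and fell by 1.03 ± 0.26 (adjusted p = 0.0252) and 1.54 ± 0.25 (adjusted p = 0.00186). Outside untreated WT liver Elovl3 read at most 3.54, so it passed the brightness filter only through the untreated WT arrays. With the female-typical pattern as a term its difference for replicates 3 and 4 was −1.48 (adjusted p = 0.0105). Its call with all 4 arrays was lost without WT replicate 1 or 2 or Aag replicate 3 or 4 (adjusted p up to 0.129), and that with replicates 3 and 4 without replicate 3 (adjusted p = 0.0554).

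None of 16 tested genes of cholesterol synthesis, 16 of fatty acid and triglyceride synthesis or 20 xenobiotic P450s and flavin monooxygenases passed either limma test. At an unadjusted p under 0.05 with all 4 arrays, 3, 1 and 4 of them did, beside 19.6% of all genes, and with replicates 3 and 4, 2, 2 and 7, beside 18.4%. Their median differences with all 4 arrays were 0.20, −0.18 and 0.09. Among 15 bile acid genes, Hsd3b7, which modifies the sterol ring in bile acid synthesis, fell only with replicates 3 and 4, where it read 9.49 and 9.56, against 10.3, 10.3 and 10.1 in WT (−0.69 ± 0.16, adjusted p = 0.0228). This call was lost without Aag replicate 3 or 4 (adjusted p = 0.176 and 0.115) and with the female-typical term (adjusted p = 0.0856). Over all genes 1.39% were called lower with replicates 3 and 4. At an unadjusted p under 0.05, 1 of the 15 bile acid genes passed with all 4 arrays and 4 with replicates 3 and 4. Cyp7a1, which makes the first and limiting step from cholesterol to bile acids, did not pass (0.16 ± 0.28, adjusted p = 0.801). Of 29 glutathione and NRF2 targets, 4 passed an unadjusted p under 0.05 with all 4 arrays and 7 with replicates 3 and 4. The shares of all genes were 19.6% and 18.4%, and the list medians were 0.06 and 0.09. In limma, Gstt2 was called higher with replicates 3 and 4 only, a call lost without Aag replicate 4. Gclm, the modifier subunit of the glutathione-making ligase, rose in both fits, beside 2.00% and 1.51% of all genes called higher. It read 6.46, 6.54, 6.16 and 6.38 in Aag, against 5.69, 5.59 and 5.75 in WT, a difference of 0.71 ± 0.13 (adjusted p = 0.00378) and 0.59 ± 0.15 (adjusted p = 0.0404). Keap1, the adaptor that marks NRF2 for degradation, fell in both: 3.08, 3.45, 3.67 and 3.59 in Aag, against 4.47, 4.03 and 4.59 in WT (−0.91 ± 0.17, adjusted p = 0.00378, and −0.73 ± 0.18, adjusted p = 0.0382). For both genes 1 of the 5 fits that left out an array from the replicate 3 and 4 comparison kept the call, with adjusted p up to 0.301 for Gclm and 0.207 for Keap1. With the female-typical term neither was called (adjusted p = 0.0509 for Gclm and 0.0882 for Keap1). Keap1 is not among the 29. Outside untreated WT liver it read at most 3.67, so it passed the brightness filter only through the untreated WT arrays.

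Genes used as references for other genes gave few calls, as did all genes tested. Of 37 tested housekeeping genes, 1 passed with all 4 arrays and none with replicates 3 and 4, beside 4.50% and 2.90% of all genes. At an unadjusted p under 0.05, 5 passed in each fit, beside 19.6% and 18.4%. Their median differences were 0.00 and 0.04. The gene called with all 4 arrays was Gusb, a lysosomal glucuronidase. Gusb read 4.31, 4.42, 4.34 and 4.11 in Aag, against 3.65, 3.48 and 4.04 in WT (0.57 ± 0.16, adjusted p = 0.0391, and with replicates 3 and 4 0.50 ± 0.20, adjusted p = 0.168). Its call was lost without WT replicate 1 or 2 or Aag replicate 1, 2 or 3 (adjusted p up to 0.170). The Gapdh 3′ control probe set, not scaled, averaged 9.96 ± 0.23 in Aag and 9.97 ± 0.29 in WT (SD, n = 4 and n = 3). Its 5′ probe set averaged 9.67 ± 0.36 and 9.19 ± 0.32. By pair, the Aag 5′ mean was 9.96 in replicates 1 and 2 and 9.38 in replicates 3 and 4. Actb, cytoplasmic actin, was at −0.43 ± 0.40 (adjusted p = 0.600), Hprt, a purine salvage enzyme, at 0.04 ± 0.33 (adjusted p = 0.964) and Pgk1, a glycolytic kinase, at −0.22 ± 0.13 (adjusted p = 0.367). The Actb 3′ control probe set, not scaled, averaged 7.67 in Aag replicates 1 and 2, 7.16 in replicates 3 and 4 and 7.58 in WT. Tfrc, the transferrin receptor, was at 0.08 ± 0.17 (adjusted p = 0.847), and B2m, the light chain of MHC class I, at 0.37 ± 0.15 (adjusted p = 0.158). The groups of B2m did not overlap, as held for 691 of the 5487 genes tested. None of the 28 cytosolic ribosomal protein genes passed either limma test (2 and 3 at an unadjusted p under 0.05, beside 19.6% and 18.4% of all genes), with medians of −0.01 and 0.10. Of 47 respiratory chain genes, Sdhd, a membrane anchor of complex II, passed with all 4 arrays (0.44 ± 0.11, adjusted p = 0.0250), though not without WT replicate 1 (adjusted p = 0.0708) or Aag replicate 2 (adjusted p = 0.0605). At an unadjusted p under 0.05, 6 of the 47 passed with all 4 arrays and 5 with replicates 3 and 4, beside 19.6% and 18.4% of all genes. The median of the 47 was 0.03 with all 4 arrays and 0.26 with replicates 3 and 4. It was 0.45 between the pairs of Aag arrays, where 5 rose, beside 3.79% of all genes.

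Of 11 tested tubulins, the subunits of microtubules, 3 fell in both fits and none rose, beside 2.50% lower among all genes with all 4 arrays and 1.39% with replicates 3 and 4. With the female-typical term 2 of the 3 were called. Tubb2a, a beta-tubulin, read 5.57, 6.54, 5.22 and 4.85 in Aag, against 7.42, 7.25 and 7.45 in WT. The WT arrays lay close together and above every Aag array, and the fall was 1.83 ± 0.25 (3.54-fold, adjusted p = 0.00061) and 2.33 ± 0.20 (5.05-fold, adjusted p = 4.79e-07). Another, dimmer probe set annotated to Tubb2a gave the opposite sign with all 4 arrays and the same sign with replicates 3 and 4. The mean of the 2 probe sets differed by −0.87 with all 4 arrays. Tubb3 read 5.28, 6.00, 5.38 and 5.25 in Aag, against 6.31, 6.09 and 6.43 in WT (−0.80 ± 0.15, adjusted p = 0.00437, and −0.96 ± 0.14, adjusted p = 0.000841). Tubb6 read 3.71, 4.14, 4.28 and 4.43 in Aag, against 5.50, 4.73 and 5.26 in WT (−1.03 ± 0.17, adjusted p = 0.00277, and −0.81 ± 0.19, adjusted p = 0.0228). Tubb2a and Tubb3 were called whichever untreated array was left out, and Tubb6 lost its second call without WT replicate 1 (adjusted p = 0.0629) or either Aag array (adjusted p up to 0.194), and with the female-typical term (adjusted p = 0.0780). The median of the 11 was −0.32 and −0.44. Beta-tubulins are close in sequence, so probes of one may read another. Of 32 proteasome subunits, Psmd2, a subunit of the regulatory particle base, fell in both fits, at 4.36, 4.32, 4.64 and 4.65 in Aag, against 5.44, 5.04 and 5.54 in WT (−0.85 ± 0.14, adjusted p = 0.00325, and −0.69 ± 0.17, adjusted p = 0.0300). The second call of Psmd2 was lost without WT replicate 1 or 3 or either Aag array (adjusted p up to 0.184) and with the female-typical term (adjusted p = 0.0801). Psmc5, an ATPase of the same particle, passed only with all 4 arrays (−0.51 ± 0.13, adjusted p = 0.0258), and not without WT replicate 1 or 2 or Aag replicate 1 or 2 (adjusted p up to 0.141). These calls among the 32 stand beside the same 2.50% and 1.39% of all genes called lower. At an unadjusted p under 0.05, 5 of the 32 passed in each fit, beside 19.6% and 18.4%.

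**Figure D4:**
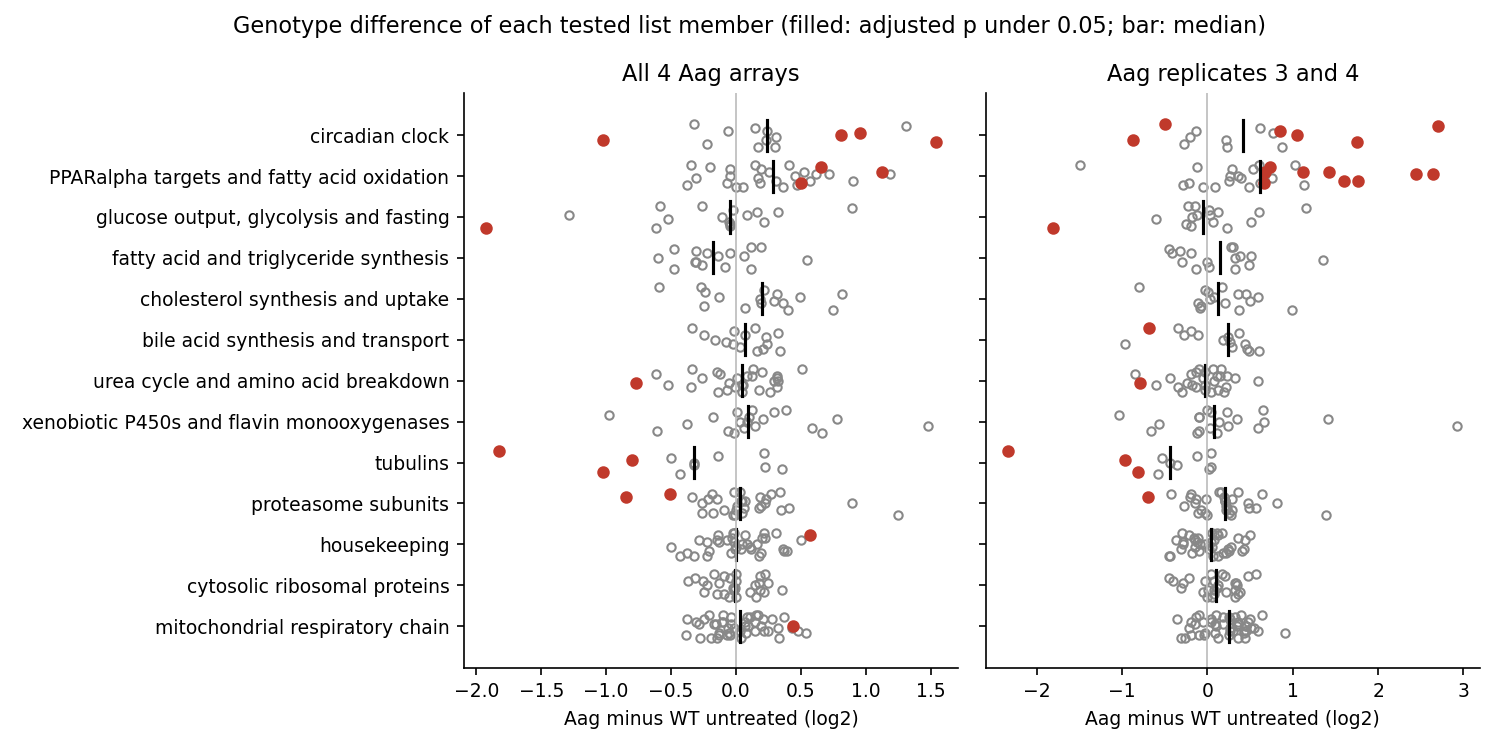
Difference of each tested gene (log2, Aag minus WT untreated) in 13 gene lists, with all 4 Aag arrays at left and Aag replicates 3 and 4 at right. Each circle is 1 gene, filled where adjusted p was under 0.05, and the bar is the list median. The median of the fatty acid oxidation list is 0.28 at left and 0.61 at right, and that of housekeeping genes 0.00 and 0.04.

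Few repair and stress genes passed either test, beside 4.50% of all genes with all 4 arrays and 2.90% with replicates 3 and 4. None of 10 tested genes of base excision and alkylation repair passed either limma test, nor did any of 17 heat shock genes. At an unadjusted p under 0.05 there were 3 repair genes and 4 heat shock genes with all 4 arrays, and 1 and 2 with replicates 3 and 4, beside 19.6% and 18.4% of all genes. Xrcc1, a scaffold of base excision repair, read 5.40, 5.16, 5.33 and 5.35 in Aag, against 5.48, 6.06 and 6.01 in WT, and missed the threshold (−0.54 ± 0.21, adjusted p = 0.137). Its groups did not overlap, as held for 691 of the 5487 genes tested. Of 13 p53 targets, Zmat3, an RNA-binding protein, fell with all 4 arrays only (−0.46 ± 0.13, adjusted p = 0.0391). Of 22 genes of the unfolded protein response, Trib3, a pseudokinase induced in that response and in fasting, rose in both fits (0.60 ± 0.16, adjusted p = 0.0340, and 0.85 ± 0.17, adjusted p = 0.00824). Of 23 acute phase genes, Crp fell with all 4 arrays only (−0.43 ± 0.11, adjusted p = 0.0301). At an unadjusted p under 0.05 with all 4 arrays, 1 of the 13, 5 of the 22 and 2 of the 23 passed. With replicates 3 and 4 it was 1, 3 and 2, beside the same 19.6% and 18.4%. Mt1, a metallothionein, read 6.62, 6.31, 9.02 and 8.10 in Aag, against 6.56, 5.95 and 6.18 in WT, and passed only with replicates 3 and 4 (2.33 ± 0.58, adjusted p = 0.0361). The Mt1 call was lost without Aag replicate 3 (adjusted p = 0.319), Aag replicate 4 (adjusted p = 0.0951), WT replicate 2 (adjusted p = 0.0800) or WT replicate 3 (adjusted p = 0.0527), and with the female-typical term (adjusted p = 0.129). The call of Trib3 with replicates 3 and 4 was lost without Aag replicate 4 (adjusted p = 0.154), and that with all 4 arrays without WT replicate 1 or Aag replicate 1, 3 or 4 (adjusted p up to 0.159). Zmat3 lost its call without any array but WT replicate 3 or Aag replicate 3 (adjusted p up to 0.141), and Crp without WT replicate 1 or 2 or Aag replicate 1 or 4 (adjusted p up to 0.0821).

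Cell type markers were examined because whole liver was extracted, in which a change in the share of a cell type and a change in RNA per cell cannot be told apart. All 12 hepatocyte markers on the array were bright enough to test. Their mean level was 9.90 to 10.1 in the Aag arrays and 9.89 to 10.1 in WT, and 1 of the 12 was called, Apoa1, which was higher by 0.29 ± 0.08 with all 4 arrays. Kupffer cell and macrophage markers averaged 5.10 to 5.55 in Aag, against 4.73 to 5.10 in WT. None of the 11 tested passed either limma test (2 and 1 at an unadjusted p under 0.05, beside 19.6% and 18.4% of all genes), and their median difference was 0.33 in both fits. Erythroid markers averaged 5.29 to 5.88 in Aag, against 5.90 to 6.32 in WT, and 1 of 5 fell, Hba-a1, an alpha-globin, which read 8.52, 8.22, 8.01 and 8.45 in Aag, against 10.1, 8.77 and 8.78 in WT (−0.93 ± 0.25, adjusted p = 0.0322). Without WT replicate 1, Hba-a1 differed by −0.48 (adjusted p = 0.200), and its call was also lost without Aag replicate 2 (adjusted p = 0.0715) or 3 (adjusted p = 0.0670). Dcn, a matrix proteoglycan made by stellate cells, rose with all 4 arrays (1.22 ± 0.28, adjusted p = 0.0153, 1 of 9 stellate and fibroblast markers). Flt1 was 1 of 5 endothelial markers and Krt18 1 of 3 cholangiocyte markers to fall with all 4 arrays. These calls too depended on single arrays: Apoa1 and Flt1 were called in 1 of the 7 fits that each left out an array, Krt18 in 3 and Dcn in 6, the exception being the fit without WT replicate 2 (adjusted p = 0.0554). Over all genes, 2.00% were called higher and 2.50% lower with all 4 arrays. At an unadjusted p under 0.05 with all 4 arrays, 4 of 12 hepatocyte and 2 of 5 erythroid markers passed, beside 19.6% of all genes. So did 4 of 9 stellate and fibroblast, 1 of 5 endothelial and 1 of 3 cholangiocyte markers. The part of these cells in the differences above was not tested.

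Some of the largest differences lay outside the lists. Erdr1, a gene of the pseudoautosomal end of the X and Y chromosomes, read 5.77, 4.76, 8.0 and 7.39 in Aag, against 3.48, 4.10 and 4.35 in WT, and rose by 2.50 ± 0.54 (adjusted p = 0.0106) and 3.72 ± 0.45 (adjusted p = 9.52e-05). Its other probe set gave the opposite sign. Igbp1, a regulator of protein phosphatase 2A, read 4.59, 4.44, 5.18 and 5.34 in Aag, against 3.79, 2.96 and 4.35 in WT (1.19 ± 0.24, adjusted p = 0.00718, and 1.56 ± 0.26, adjusted p = 0.00233). Gch1, the first enzyme of tetrahydrobiopterin synthesis, rose by 0.90 ± 0.25 (adjusted p = 0.0422) and 1.28 ± 0.27 (adjusted p = 0.0135). Its first call was lost without WT replicate 1 or 2 or Aag replicate 2, 3 or 4 (adjusted p up to 0.161) and its second without either Aag array (adjusted p up to 0.159). Erdr1 lost its first call without WT replicate 1 (adjusted p = 0.0533). Among the lower genes, Dhrs3, a retinaldehyde reductase, read 5.71, 5.75, 6.06 and 6.07 in Aag, against 7.10, 7.08 and 6.51 in WT (−1.0 ± 0.14, adjusted p = 0.000686, and −0.83 ± 0.16, adjusted p = 0.00843), with the second call lost without either Aag array (adjusted p = 0.0905 and 0.0812). Rpa2, part of the RPA complex that coats single-stranded DNA, read 4.20, 4.91, 5.17 and 5.31 in Aag, against 5.97, 6.30 and 5.73 in WT (−1.10 ± 0.21, adjusted p = 0.00378, and −0.76 ± 0.19, adjusted p = 0.0391). The second call of Rpa2 was lost without WT replicate 1 or 2 or either Aag array (adjusted p up to 0.265) and with the female-typical term (adjusted p = 0.105). A probe set annotated to Sry read 4.50, 4.25, 3.84 and 4.25 in Aag, against 2.87, 3.53 and 3.08 in WT, and was called in both fits. A second probe set gave the opposite sign. In the female-typical replicate 3 the called probe set had its lowest Aag value, 3.84, which was still above every WT array. Without Aag replicate 4 its second call was lost (adjusted p = 0.132). Of the 87 genes, 20 have more than 1 probe set, and another probe set gave the opposite sign in 12 of these with all 4 arrays and in 9 with replicates 3 and 4. Without each untreated array in turn, 7 of the 87 were called in all fits of both comparisons: Cpt1a, Igbp1, Slc5a6, Ubap2l, Chka, Tubb2a and Tubb3. Slc5a6, a vitamin transporter for biotin and pantothenate, read 4.88, 4.85, 5.21 and 5.20 in Aag, against 4.37, 4.50 and 4.14 in WT. Chka, a choline kinase, read 4.76, 4.96, 4.34 and 4.49 in Aag, against 5.31, 5.13 and 5.37 in WT.

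After MMS few genes differed between the genotypes. Over the 4 times, 11 of 5487 genes (0.200%) differed between Aag null and WT liver, 5 higher (0.0911%) and 6 lower (0.109%), from arrays that share none with the untreated comparison. None of the 247 genes called with all 4 Aag arrays was among them. Of those called with replicates 3 and 4, Pttg1 and Gamt were, each with the same sign. Pttg1 differed by −0.84 untreated with replicates 3 and 4 (limma adjusted p = 0.0267) and by −0.57 after MMS (adjusted p = 0.0145). Gamt differed by 0.47 (adjusted p = 0.0359) and by 0.37 (adjusted p = 0.0141). At an unadjusted p under 0.05, 141 genes differed after MMS. A contrast of the untreated difference with that after MMS passed for 97 of all genes tested (1.77%) with all 4 Aag arrays, 35 higher (0.638%) and 62 lower (1.13%), and for 119 with replicates 3 and 4. The 87 genes were chosen on the untreated difference, which this contrast contains, so no count of them is given. The mean difference after MMS was −0.06 for Nr1d2, 0.01 for Cry1, −0.14 for Cpt1a, 0.11 for G6pc and 0.26 for Tubb2a.

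In most of the 87 genes the untreated WT arrays stood apart from all others. In 62 of the 87 (71.3%) the 3 untreated WT arrays lay wholly above (41) or wholly below (21) the range of the other 25 arrays, which are untreated Aag null liver and both genotypes after MMS. The same held for 243 of all genes tested (4.43%). The 87 were chosen for a difference between untreated WT and Aag arrays that are among the 25, so nothing is read from their share. Cpt1a was lowest in untreated WT liver, where it read 6.94 to 7.60, against 7.85 to 8.72 in Aag null liver and 8.10 to 8.78 in WT liver after MMS. Tubb2a was highest there, at 7.25 to 7.45, against 4.82 to 5.86 in Aag null and 4.62 to 5.52 in WT liver after MMS. Nr1d2 was at 2.70 to 3.01 in untreated WT, against 4.60 to 6.14 in Aag null and 4.21 to 6.02 in WT liver after MMS. G6pc was an exception, since the highest treated Aag array, at 9.59, overlapped its untreated WT range of 9.40 to 10.3. All 3 untreated WT arrays were in the set with high hybridization controls and all 21 treated arrays in the set with low ones, so that for WT liver the array set and MMS cannot be told apart.

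**Figure D5:**
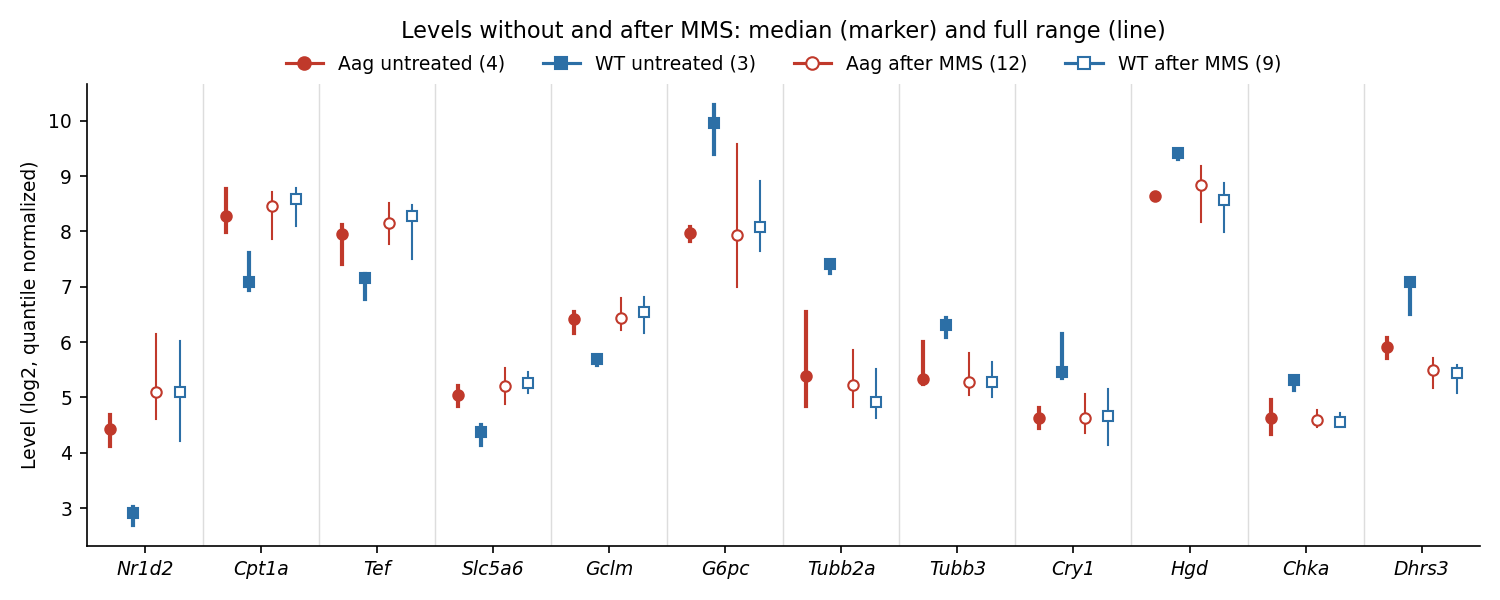
Median (marker) and full range (line) of 12 genes called in both untreated comparisons, on the normalized log2 scale, in untreated Aag (4 arrays), untreated WT (3), Aag after MMS (12) and WT after MMS (9). For all but G6pc the untreated WT range lies outside the ranges of the other 3 groups, as for Tubb2a at 7.25 to 7.45.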

How the data were processed

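Liver RNA of 28 arrays was analysed, 7 of them untreated. The authors deposited log2 values per probe set; their software and background correction are not stated in the labels or headers, and for arrays the number of samples limits the precision. Medians of the deposited arrays spanned 0.215 log2 units, so 12422 probe sets without the 66 controls were quantile normalized. Of 12488 probe sets, 10855 have 1 gene symbol, 396 several and 1237 none. The brightest probe set stood for a gene (8251 genes), and the 5487 genes that exceeded the median of an array on 2 or more arrays entered the tests. Tests used limma 3.58.1 in R 4.3.3 (lmFit with 10 group means over 28 arrays and 18 residual degrees of freedom, eBayes with trend), with Benjamini-Hochberg adjustment over all tested genes and calls at adjusted p under 0.05. The comparison with Aag replicates 3 and 4 used 26 arrays and 16 residual degrees of freedom. Scripts were tested on simulated data. Figures were drawn with matplotlib 3.10.9.

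The genes named were Mpg, up to 10 genes a direction with the largest differences in each comparison, clock genes, reference genes and up to 4 members of each list with the smallest adjusted p. Members, lists and comparisons were chosen with earlier results of these data known. The alternatives tried were the scaling, the brightness filter, the mean of probe sets, a replicate block, array weights, only the groups compared, terms for array set and for the female-typical pattern, and leaving out each array.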

Additional observations from a re-analysis of the deposited data

Results flagged for a closer look

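In the group of 4 untreated Aag arrays, 1 array stood apart from the other 3 by Dixon's criterion in 10 of the 175 named genes. Chance flags about 1 in 20 groups, a share close to this one. Replicate 3 stood apart in Cyp2b13 (6.00), Eif2s3y (2.58), Gstp1 (9.11) and Lpl (3.07). Replicate 1 stood apart in Psmb5 (5.37), Zmat3 (3.91), Cdkn1a (6.61) and Ttr (9.11), and replicate 4 in Psmc5 (5.41) and Acta1 (4.82).

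For the named genes that follow, the untreated genotype difference (Aag minus WT) differed from that after MMS. The contrast was made in the same limma fit, with all 4 Aag arrays. Many named genes were chosen for a large untreated difference, which this contrast contains, so nothing is read from their number. The gap was above 0 for Nr1d2 (1.60), Cpt1a (1.26), Igbp1 (1.19), Nr1d1 (0.95), the probe set annotated to Sry (0.93), Gclm (0.76), Fam107b (0.71), Ubap2l (0.70), Hadhb (0.66) and Slc25a20 (0.63). It was below 0 for Tubb2a (−2.09), G6pc (−2.03), Tmem150a (−1.27), Hba-a1 (−1.23), Ssr4 (−1.20), Rpa2 (−1.11), Tubb6 (−1.11), Tspan3 (−1.09), Dhrs3 (−1.08), Cry1 (−1.03), H1f8 (−0.96), Hgd (−0.94), Ethe1 (−0.91), Tubb3 (−0.88), Ccng2 (−0.88) and Psmd2 (−0.71). Ccng2 passed the brightness filter only through the untreated WT arrays. Over all genes tested, 97 (1.77%) passed this contrast.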

How the results depend on the processing

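With all 4 Aag arrays, 247 genes were called. The count was 535 without the brightness filter, 23 with array weights, 2 with only the groups compared, 538 with Aag replicates 1 and 2 only, 159 with replicates 3 and 4 only and 87 with terms for array set and female-typical pattern. Leaving out 1 array gave 141 to 349, with 141 without Aag replicate 1, 157 without Aag replicate 2 and 151 without WT replicate 1. On the deposited scale 116 of 210 calls were higher, against 110 of 247 after quantile normalization. With replicates 3 and 4, 159 genes were called, against 305 without the filter, 28 with only the groups compared and 78 with the female-typical term. Leaving out 1 array gave 33 to 251, with 33 without Aag replicate 3, 42 without Aag replicate 4 and 251 without WT replicate 3. After MMS 11 genes were called, against 6 on the deposited scale, 2 with median centring, 7 with the mean of probe sets, 0 with array weights (limma, 71 at an unadjusted p under 0.05) and 6 without the female-typical arrays. Leaving out 1 array gave 2 to 19. The cause of these shifts was not tested, beyond the smaller number of arrays in the reduced fits. Replicate numbers did not pair the samples (correlations of same-numbered deviations −0.182, 0.0042 and −0.0042). With a replicate block the 3 counts were 187, 73 and 7. No named gene called in the untreated comparison changed sign under any alternative run.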
